A study of Homo sapiens with 10 samples.

Results

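U937, a human monocytic cell line, was differentiated with interferon gamma, and the high-affinity IgG receptor CD64 was cross-linked for 6 h. The comparison described here set the 2 arrays of these cells against the 2 arrays of control cells, 4 of the 10 arrays of the study, chosen by their titles. The control cells were also differentiated with interferon gamma and had no cross-linking listed, and the labels gave them no time. The agents used for cross-linking were not stated. The remaining 6 arrays, 2 for each group, came from equally differentiated cells in which CD64 was cross-linked for 2 h, or CD32, an IgG receptor of low affinity, for 2 h or for 6 h. One array of each pair was called a duplicate of the other, or the pair was numbered, without a word on separate cultures. Every p-value below therefore measures only the spread between these arrays, which may be technical. Signal was read on a 1-colour oligonucleotide array with 8746 probe sets that were not control probe sets, of which 7708, for 6803 genes, were tested.

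Receptors for the constant part of IgG let monocytes bind antibody-coated particles. CD64 binds even single IgG molecules, is induced by interferon gamma, and signals through the common gamma chain FCER1G, whose activation motifs recruit the kinase SYK. In monocytes this signalling is known to lead to phagocytosis, an oxidative burst and the release of cytokines and chemokines.

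The cells carried monocyte transcripts: of 20 monocyte and macrophage markers 16 were on the array and 9 lay above the floor on all 10 arrays. CD14, CSF2RA, CD163, MRC1, ITGAX, CD86 and MSR1 did not. The floor was a signal of 37.5, the percentile 25 of all values, and lower values were raised to it before the log2 was taken. Of the tested markers of T cells, B cells, natural killer cells, erythroid cells and epithelial cells or fibroblasts, 0 of 10, 0 of 6, 0 of 8, 0 of 6 and 0 of 7 differed between CD64 6 h and control. Of the 16 monocyte markers tested 2 rose and 2 fell. Above the floor on all 10 arrays were 3 of 12 T cell, 2 of 7 B cell and 2 of 10 natural killer markers. The same held for 2 of 7 erythroid and 1 of 11 epithelial or fibroblast markers. The rest were at or under the floor on at least 1 array, where a change is hard to call. The counts of 0 are therefore weak evidence. Summed over the T cell list, signal was 744.1 and 566.8 on the CD64 6 h arrays, against 910.5 and 580.8 on the control arrays. The bulk arrays cannot tell a change in the share of cells from a change in RNA per cell.

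Between the CD64 6 h and the control arrays 1591 of the 7708 probe sets differed by limma at an adjusted p under 0.05, or 20.6%. For 1379 genes (20.3%) the change was called, upward for 736 genes (10.8% of those tested) and downward for 643 (9.45%), and 538 genes changed by more than 2-fold. The median log2 change of all genes was -0.03. The arrays of the groups did not overlap for 3404 genes, 50% of those tested. Across probe sets, signal correlated at 0.977 within the CD64 6 h pair and at 0.964 within the control pair. Without CD64 6 h replicate 1 the count of probe sets was 967, and without replicate 2 it was 1023. CCL2, TNFAIP6, IFIT3 and IFIT1 had the largest rises and HILPDA, HSPG2, ATP5F1C and MED12 the largest falls among called genes with separate groups, and the plot of signal per array shows 15 of each kind. After quantile normalization 19.9% of genes were called, 10.1% upward and 9.76% downward.

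**Figure D1:**
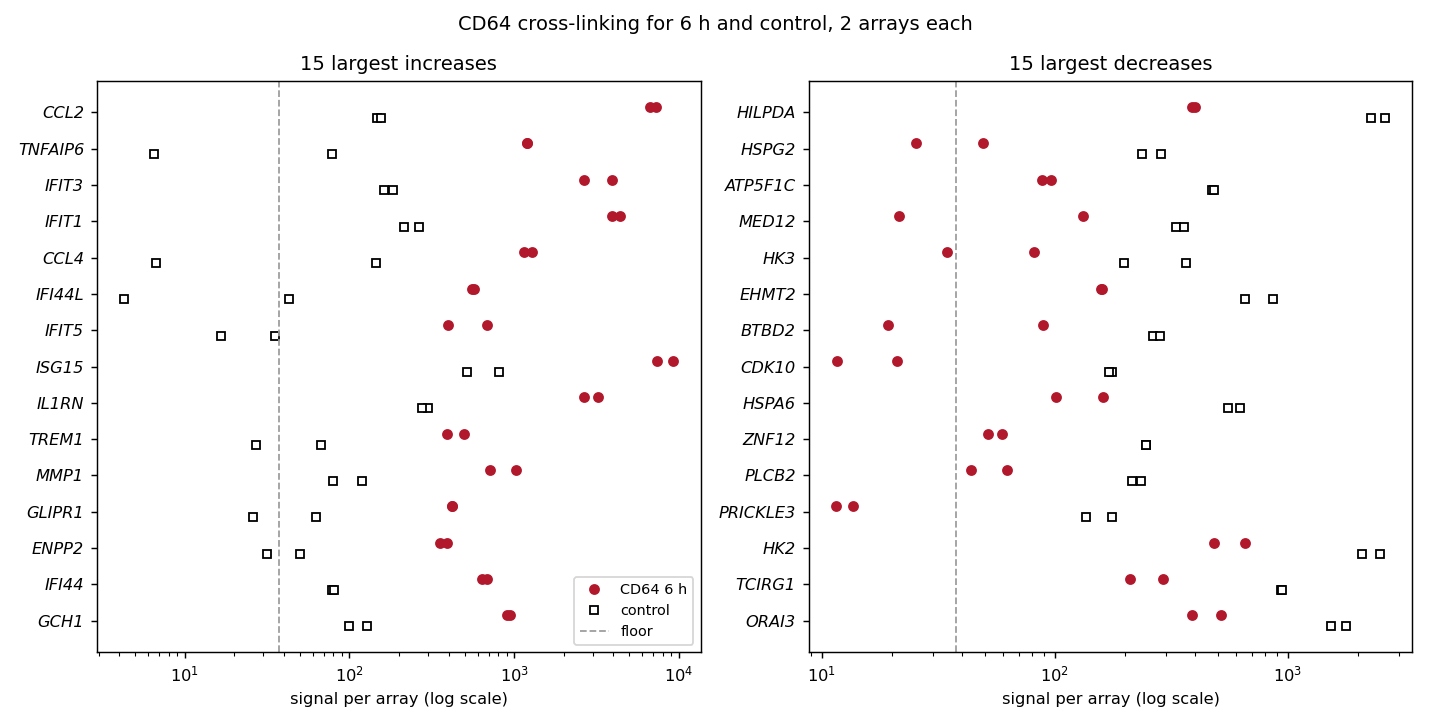
Signal per array on a log scale for the 15 genes with the largest rise (left) and the 15 with the largest fall (right) after 6 h of CD64 cross-linking, among called genes whose groups did not overlap. Filled circles are the 2 CD64 6 h arrays, open squares the 2 control arrays, and the dashed line is the floor of 37.5. IFIT5 has both control arrays under the floor, and CDK10 and PRICKLE3 have both CD64 6 h arrays under it.

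Very bright signals were compressed on the CD64 6 h arrays, which bears on every fall of a bright gene. The highest signals were 14536 and 15868 on the CD64 6 h arrays, against 27987 and 28036 on the control arrays. Probe sets were divided into 10 bins of like size by mean control signal. In the brightest bin of 771 probe sets the median log2 change was -0.26 with the deposited scaling, and -0.07 after quantile normalization. With the deposited scaling 74 of them were called higher and 312 lower, where 10.7% and 9.94% of all probe sets were called. The 18 control probe sets for bioB, bioC, bioD and cre transcripts, which do not come from the cells, had a mean log2 signal of 9.32 on the CD64 6 h arrays and 10.63 on the control arrays, with a ratio of control over CD64 6 h between 2.11 and 3.03. Their part in the results was not tested. The ratio of the 3-prime to the 5-prime actin probe set, a measure of RNA quality, was 1.12 on the CD64 6 h arrays and 1.30 on the control arrays. Counts under quantile normalization are given below wherever they changed what could be said of a list.

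**Figure D2:**
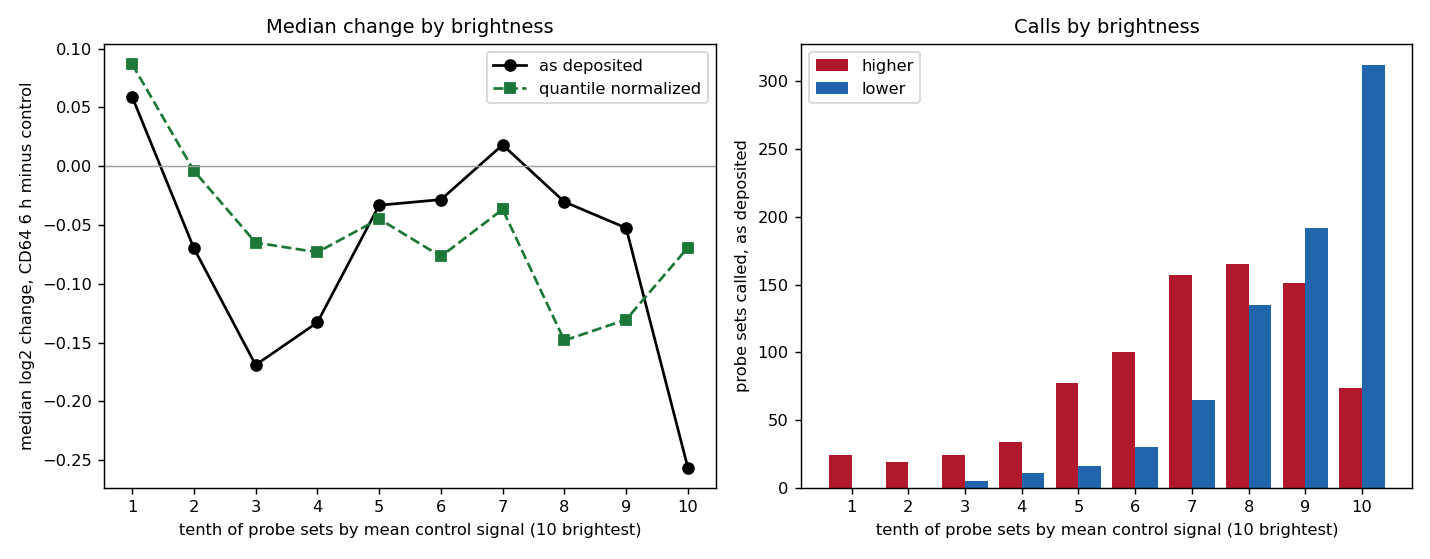
Left, median log2 change (CD64 6 h minus control) in 10 bins of probe sets ordered by mean control signal, as deposited (circles) and after quantile normalization (squares). Right, probe sets called higher or lower as deposited in the same bins. In the brightest bin the median was -0.26 as deposited and -0.07 after quantile normalization, and 74 probe sets were called higher and 312 lower.

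Among the receptors themselves, the inhibitory receptor FCGR2B and the gamma chain FCER1G rose, 2 of 4 genes tested. No tested probe set carried the symbol of FCGR1A, so the transcript of CD64 was not analysed here. FCGR2B read 1015.5 and 938.8 on the CD64 6 h arrays, against 411.2 and 437.6 on the control arrays. The groups stood well apart, and FCGR2B was 2.3-fold higher with CD64 cross-linking (log2 1.2 ± 0.12, SE, limma adjusted p = 6.88e-05). FCGR2B shares long stretches of sequence with its neighbours in the family, so its probe set may also read them. FCER1G read 3683.3 and 3927.9 in CD64 6 h cells, against 3007.9 and 3203.5 in control cells, a small rise of log2 0.29 ± 0.09 (adjusted p = 0.037). That call was lost with any 1 of the 4 arrays left out (adjusted p between 0.0565 and 0.193). The activating receptor FCGR2A, at 676.7 and 600.5 after CD64 against 651.8 and 681.9 in control, overlapped between groups and was not called, nor was FCGR3B (log2 0.17, adjusted p = 0.925), whose groups overlapped too.

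Below the receptors, 3 of 40 kinases, phosphatases and adaptors rose and 8 fell (5 to 6 fell with any 1 array left out, and 1 rose without CD64 6 h replicate 2 or without control replicate 1). PTPN6, the phosphatase SHP-1 that binds inhibitory motifs, read 986.3 and 900.6 after CD64 6 h, against 1998.6 and 2158.8 in control. Both CD64 6 h arrays lay far below both control arrays (log2 -1.14 ± 0.09, adjusted p = 1.57e-05). INPP5D, the lipid phosphatase SHIP that removes the product of PI3 kinase, read 910.4 and 1264.9, against 2086.0 and 1856.6 in control (log2 -0.87 ± 0.15, adjusted p = 0.00199). GAB2, an adaptor of PI3 kinase in phagocytosis, read 244.2 and 213.2, against 610.2 and 589.3 in control (log2 -1.39 ± 0.21). INPPL1, the relative of INPP5D, had a log2 change of -0.93, which was not called without CD64 6 h replicate 1, without CD64 6 h replicate 2 or without control replicate 1. The guanine exchange factor VAV1 and the kinase BTK had log2 changes of -0.71 and -0.63 (adjusted p = 0.013 and 0.016). For SYK, at 216.6 and 187.2 against 227.4 and 200.5 in control, no change was called. Of all genes tested 10.8% rose and 9.45% fell.

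Interferon-induced genes had the highest median changes of the 51 lists examined. Of 8 IFIT genes and cytosolic RNA sensors 7 rose, with a median log2 change of 2.48, against -0.03 for all genes tested. With any 1 array left out 5 to 6 rose. Of 4 oligoadenylate synthetases 4 rose, with a median of 2.04, and of 36 other interferon-stimulated effectors 17 rose and 1 fell, with a median of 0.54. With any 1 array left out these counts were 4, and 13 to 15. The control cells had been treated with interferon gamma as well.

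IFIT1, which binds foreign RNA by its cap, read 4416.0 and 3933.8 on the CD64 6 h arrays, against 264.2 and 214.2 on the control arrays (17.5-fold, log2 4.13 ± 0.19, adjusted p = 2.53e-07). IFIT3, which forms a complex with it, read 2645.1 and 3917.6, against 161.1 and 184.4 in control (18.7-fold, log2 4.22 ± 0.21). IFIT5, a further member, read 396.2 and 683.1, while both control arrays, at 16.6 and 35.2, lay under the floor. It was therefore at least 13.9-fold higher (adjusted p = 0.00012). The RNA sensor RIGI read 1142.6 and 1045.9, against 208.3 and 133.8 in control (6.55-fold, log2 2.71 ± 0.37, adjusted p = 0.000403), and the related sensor IFIH1 read 1650.8 and 1179.6, against 262.4 and 329.0 (log2 2.25). In none of these genes did the groups overlap.

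The oligoadenylate synthetases are antiviral enzymes that sense double-stranded RNA. OAS1 read 1010.5 and 1059.4 after CD64 6 h, against 233.3 and 113.6 in control (log2 2.67 ± 0.34, adjusted p = 0.000273), and OASL, the member without synthetase activity, 1069.5 and 1004.8, against 305.2 and 184.3 (log2 2.13 ± 0.24). OAS2 had a log2 change of 1.96 and OAS3 of 1.35, all with separate groups, as 50% of all genes tested had. ISG15, a ubiquitin-like modifier, read 7342.0 and 9240.7, against 520.6 and 805.9 in control (log2 3.67 ± 0.19, adjusted p = 6.29e-07). IFI44L read 573.2 and 554.6, against 42.8 and 4.3 in control, where 1 array lay under the floor, so that its log2 change of 3.81 depends on the floor. IFI44, its paralog, read 638.6 and 688.5, against 78.2 and 80.8 (log2 3.06 ± 0.27). GCH1, the first enzyme of tetrahydrobiopterin synthesis and known as an interferon gamma target, read 943.6 and 910.4, against 127.6 and 99 in control (8.25-fold, log2 3.04 ± 0.19, adjusted p = 3.07e-06). Further members with called rises were IFI27 (log2 1.99), USP18, which removes ISG15 (1.28), IFI6 (1.24), the antiviral GTPase MX2 (1.18) and the kinase EIF2AK2 (1.02).

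Genes known as interferon gamma targets went both ways: GCH1, given above, rose, while some others did not. IRF1, a transcription factor induced by interferons, read 338.7 and 341.3 on the CD64 6 h arrays, against 825.5 and 815.2 on the control arrays (log2 -1.27 ± 0.16, adjusted p = 0.000228). IRF8, the myeloid member of the family, read 660.5 and 631.3, against 1274.8 and 1252.5 in control (log2 -0.97 ± 0.17, adjusted p = 0.00191). IRF7, which amplifies type I interferon responses, read 1202.9 and 1306.2, against 887.5 and 713.5 (log2 0.66 ± 0.15, adjusted p = 0.0103), a call lost without CD64 6 h replicate 2 or without control replicate 2. Of 8 interferon regulatory factors 1 rose and 2 fell, where 10.8% of all genes tested rose and 9.45% fell. The guanylate-binding protein GBP1 had a log2 change of 0.73 that was not called (adjusted p = 0.12), and GBP2, the 1 effector that fell, had one of -0.36 (adjusted p = 0.034). Of 25 JAK, STAT and SOCS genes 5 rose and 2 fell (3 rose and 0 to 1 fell with any 1 array left out). Among those that rose were SOCS2, an inhibitor of cytokine signalling, at 486.2 and 583.9 against 165.9 and 181.1 in control (log2 1.62 ± 0.22), and the receptor chain IFNGR1, at 1790.8 and 1790.8 against 878.9 and 851.9 (log2 1.05 ± 0.12, adjusted p = 0.000154).

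The promoters of several interferon-induced genes held the core of the interferon-stimulated response element. The letters searched were GAAA, any 2 bases and GAAA again, on both strands and without regard to other motifs, in RefSeq windows (GRCh38.p14) of 250 bases before to 50 after each gene start. The core was in 3.65% of all 27305 windows and in 3.41% of those of tested genes (189 of 5540 with a window). It was in 7.47% of the windows of genes that rose (47 of 629) and in 2.77% of those of genes that fell (15 of 541). Of the IFIT and RNA sensor list 5 of 8 held it, of the oligoadenylate synthetases 1 of 2 with a window, and of the other effectors 19 of 26. RIGI, OAS1 and CXCL11 held 0 matches. The 4 genes shown are those with the largest rise among the named genes that hold it; capitals mark each match, which on the opposite strand reads TTTC, any 2 bases and TTTC, and a match is a description, not a shown binding site. The windows are IFIT3 at chr10:89327747-89328046, IFIT1 at chr10:89392373-89392672, IFI44L at chr1:78620198-78620497 and IFIT5 at chr10:89414318-89414617, all on the + strand and written 5′ to 3′.
IFIT3: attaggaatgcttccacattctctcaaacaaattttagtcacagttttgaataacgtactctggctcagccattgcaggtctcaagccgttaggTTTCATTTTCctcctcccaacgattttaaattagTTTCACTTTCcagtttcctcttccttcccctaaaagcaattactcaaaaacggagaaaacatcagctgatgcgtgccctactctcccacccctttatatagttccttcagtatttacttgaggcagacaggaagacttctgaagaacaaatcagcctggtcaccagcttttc
IFIT1: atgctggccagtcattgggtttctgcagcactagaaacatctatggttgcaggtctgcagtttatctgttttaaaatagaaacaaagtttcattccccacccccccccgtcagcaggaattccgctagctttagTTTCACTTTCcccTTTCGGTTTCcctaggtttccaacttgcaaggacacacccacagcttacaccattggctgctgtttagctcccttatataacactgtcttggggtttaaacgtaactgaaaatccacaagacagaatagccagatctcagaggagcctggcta
IFI44L: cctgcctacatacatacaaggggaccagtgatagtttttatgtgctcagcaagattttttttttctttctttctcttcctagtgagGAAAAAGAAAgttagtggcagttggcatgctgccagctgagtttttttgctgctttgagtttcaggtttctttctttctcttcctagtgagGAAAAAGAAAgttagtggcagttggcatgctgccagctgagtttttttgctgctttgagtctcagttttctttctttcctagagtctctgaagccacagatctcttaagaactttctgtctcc
IFIT5: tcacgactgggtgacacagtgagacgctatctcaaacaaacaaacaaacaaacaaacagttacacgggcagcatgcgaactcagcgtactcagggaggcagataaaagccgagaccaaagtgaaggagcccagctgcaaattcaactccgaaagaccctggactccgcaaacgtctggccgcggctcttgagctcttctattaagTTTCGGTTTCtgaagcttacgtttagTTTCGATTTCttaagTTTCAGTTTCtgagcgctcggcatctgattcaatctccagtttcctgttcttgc
IFIT3, IFIT1 and IFI44L each held 2 matches and IFIT5 held 3. The match farthest upstream began 45 bases before the gene start in IFIT5 and 116 bases before it in IFIT1. A kappaB-like sequence (GGG, any 3 bases and TTCC, on both strands) was in 8.27% of the windows of genes that rose and 6.47% of those that fell, against 7.55% of tested genes. The AP-1 sequence TGACTCA, on both strands, was in 7% of the windows of genes that rose and 2.59% of those that fell, against 4.01% of tested genes.

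Of 16 CC chemokines 4 rose and 0 fell, where 10.8% of all genes tested rose and 9.45% fell, and the median log2 change of the list was -0.06. CCL2, the main ligand of CCR2, read 6684.3 and 7225.8 in CD64 6 h cells, against 147.7 and 156.2 in control cells, the largest rise of all genes called (45.8-fold, log2 5.52 ± 0.15, adjusted p = 1.53e-08). CCL4, a chemokine of activated monocytes, read 1275.7 and 1148.7, against 145.0 and 6.7 in control, so its log2 change of 4.04 depends on the floor and was 3.06 without control replicate 2 and 5.01 without control replicate 1. CCL7 and CCL8, close relatives of CCL2, read 299.5 and 289.6, and 218.2 and 245.4, against 79.9 and 35.3, and 51.7 and 29.7, in control (log2 2.43 and 2.39, with 1 control array of each under the floor). CCL5, at 2309.6 and 2238.6 against 2547.2 and 2636.7 in control, was not called.

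Among ligands of CXCR3, CXCL11 read 1446.0 and 871.8 on the CD64 6 h arrays, against 181.1 and 134.0 on the control arrays (log2 2.85 ± 0.27). CXCL10 was bright in both groups, at 11075.2 and 11364.2 against 7291.4 and 7356.3 in control, and its log2 change was 0.62 as deposited and 1.24 after quantile normalization. CXCL9 had a log2 change of 0.27 as deposited that was not called (adjusted p = 0.051), while all 3 ligands were called under quantile normalization. Of 7 chemokines that attract neutrophils 2 rose. CXCL8, the main one, read 832.7 and 785.5, against 197.8 and 150.8 in control (log2 2.23 ± 0.15, adjusted p = 4.53e-06), and CXCL2 read 255.0 and 145.5, against 19.3 and 58.3 (log2 2.04, dependent on the floor, a call lost without CD64 6 h replicate 1, which left 1 of the 7).

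Receptors for chemoattractants rose in part, 6 of 21 with 1 lower, where 10.8% of all genes tested rose and 9.45% fell. CX3CR1, the fractalkine receptor of monocytes, read 582.3 and 655.9 after CD64 6 h, against 98.1 and 100 in control (log2 2.64 ± 0.25, adjusted p = 3.52e-05). The complement receptors C5AR1 and C3AR1 read 258.5 and 280.1, and 1156.8 and 992.3, against 63.7 and 70.3, and 293.0 and 349.4, in control (log2 2.01 and 1.74). CCR1, a receptor of CC chemokines, rose by log2 1.21, and the 1 receptor that fell was CXCR4, at 3748.9 and 3697.4 against 7377.0 and 7251.9 in control (log2 -0.97). In each of these genes the groups were separate, as they were for 50% of all genes tested.

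Of 18 cytokines and growth factors outside the chemokine, interleukin-1 and TNF family lists 3 rose and 2 fell. Of 24 TNF family ligands and receptors 4 rose and 1 fell. Of all genes tested 10.8% rose and 9.45% fell. IL1RN, the natural antagonist of interleukin-1, read 2661.5 and 3231.1 in CD64 6 h cells, against 302.0 and 276.6 in control cells (log2 3.34 ± 0.15, adjusted p = 2.71e-07). No change was called for IL1B (612.6 and 612.2, against 531.5 and 686.7 in control) or IL6 (86.0 and 113.0, against 86.0 and 69.1), and TNF was near or under the floor in both groups. IL18RAP, a chain of the interleukin-18 receptor, read 274.6 and 211.3 while both control arrays lay under the floor, and was at least 6.42-fold higher. CASP1, the protease that activates interleukin-1 beta, read 442.0 and 460.8, against 145.5 and 216.9 in control (log2 1.35 ± 0.24). Of 16 genes of the interleukin-1 family 4 rose and 0 fell as deposited, and 4 rose and 1 fell after quantile normalization. Fewer rose with any 1 array left out. The death ligand TNFSF10 (TRAIL) read 2272.5 and 2388.3, against 277.7 and 306.7 in control (7.98-fold, log2 3 ± 0.12, adjusted p = 9.24e-08), and its receptor TNFRSF10B 1427.7 and 1260.3, against 523.8 and 423.6 (log2 1.51). TGFB1, an anti-inflammatory cytokine, read 850.2 and 1038.7, against 1876.2 and 2075.5 in control (log2 -1.07 ± 0.13, adjusted p = 0.000154).

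Secreted proteins of the hyaluronan matrix and of innate recognition were among the risers. TNFAIP6, which binds hyaluronan, read 1196.1 and 1201.8, against 78.1 and 6.5 in control; with 1 control array under the floor its log2 change of 4.47 depends on it. PTX3, a soluble pattern receptor, read 848.2 and 780.8, against 214.3 and 209.1 in control (log2 1.94 ± 0.19, adjusted p = 4.4e-05). The interstitial collagenase MMP1 read 1023.1 and 712.4, against 119.6 and 80.0 in control (log2 3.13 ± 0.28), and ENPP2 and GLIPR1 rose by log2 3.10 and 3.11, each with 1 control array under the floor. Of 28 matrix proteases and clotting genes 4 rose and 0 fell as deposited, and 4 rose and 2 fell after quantile normalization. Of all genes tested 10.8% rose and 9.45% fell as deposited. PLAUR, the urokinase receptor, was among those that rose (log2 0.56).

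**Figure D3:**
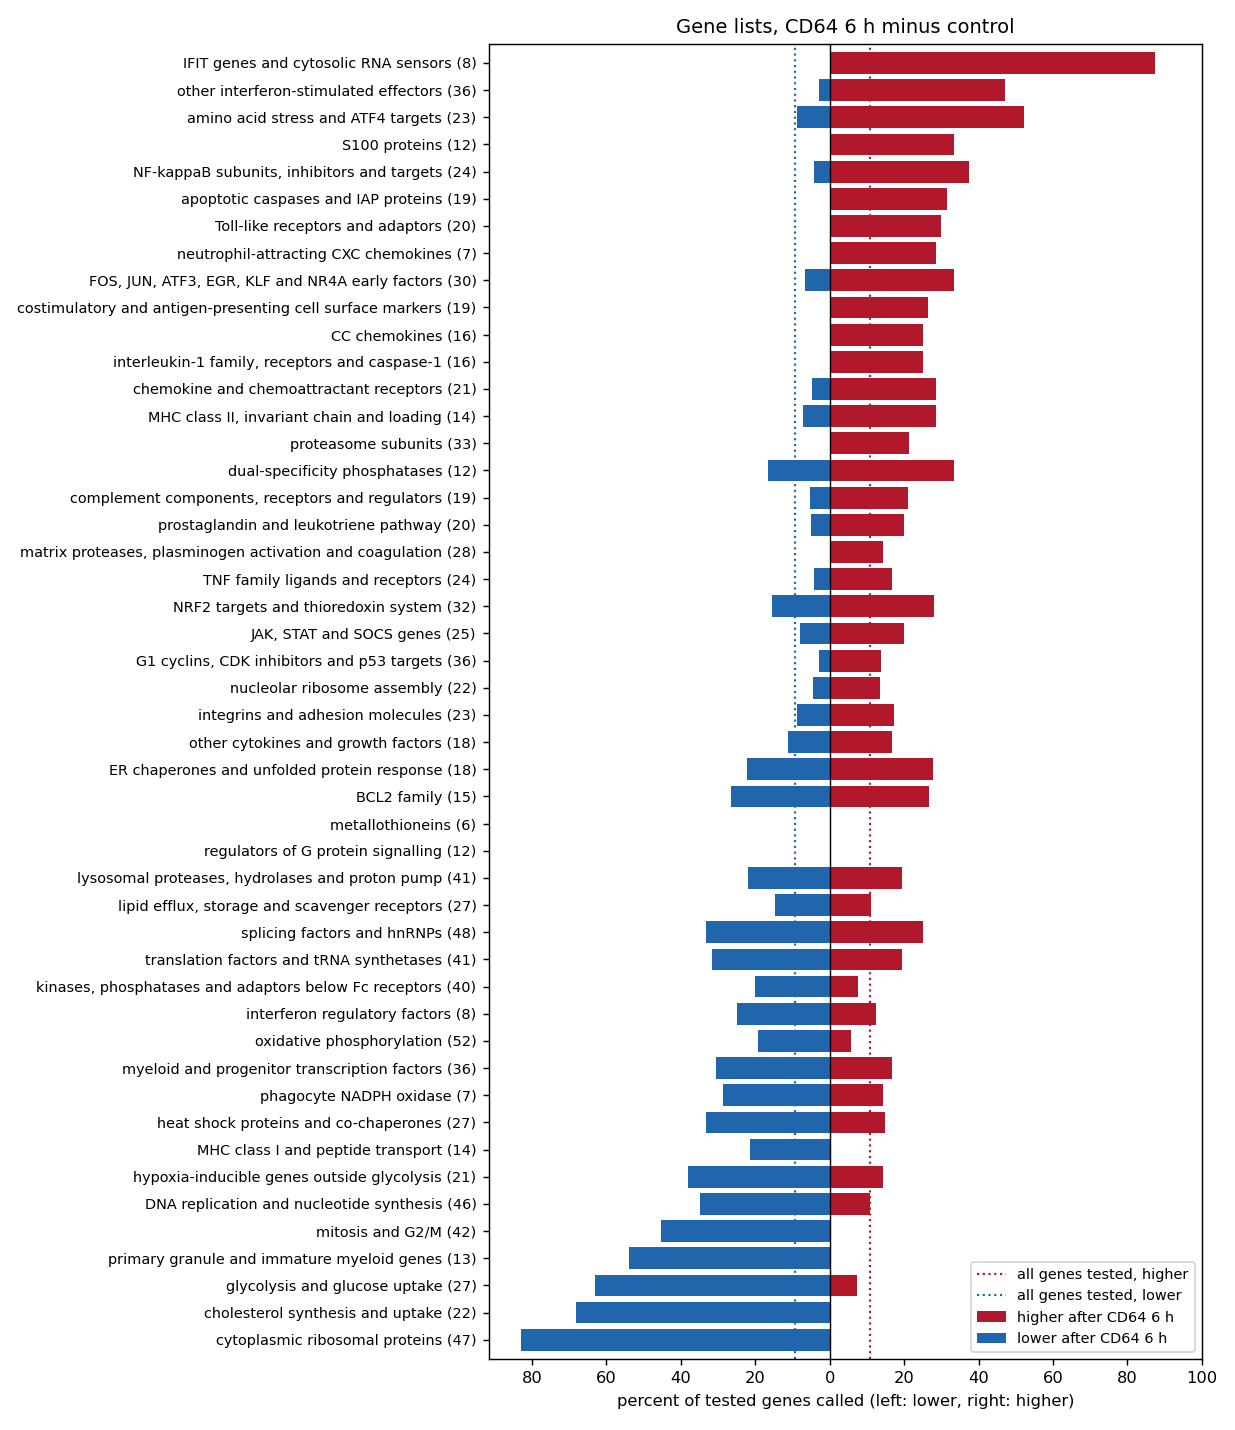
Percent of the tested genes of each list called higher (right) or lower (left) after 6 h of CD64 cross-linking, with the number of genes tested in brackets, for lists with at least 6 genes tested. Dotted lines give the share of all genes tested, 10.8% higher and 9.45% lower; the ribosomal protein bar (39 of 47 lower as deposited) was 1 of 47 after quantile normalization.

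Of 24 NF-kappaB genes 9 rose and 1 fell (7 to 10 rose with any 1 array left out). CD83, a surface marker of activated antigen-presenting cells, read 632.5 and 544.7 after CD64 6 h, against 168.2 and 106.8 in control (log2 2.13 ± 0.22). TRAF1 read 149.2 and 153.4, against 38.1 and 36.3 in control, at the edge of the floor (log2 2.00), and IER3, an early response gene, 451.7 and 466.5, against 179.4 and 138.1 (log2 1.54 ± 0.16). The inhibitor NFKBIA rose by log2 0.67. Of 30 early transcription factors of the FOS, JUN, EGR, KLF and NR4A families 10 rose and 2 fell, but 5 to 7 rose with any 1 array left out. KLF10 and KLF4 rose by log2 2.01 and 1.69, and ATF3, a stress-induced repressor, by 1.42. For EGR1, at 126.7 and 158.8 against 62.4 and 63.4 in control, the log2 change was 1.17 and the call was lost with any 1 array left out (adjusted p between 0.0558 and 0.14). FOS, JUN and JUNB were not called. The phosphatases DUSP6 and DUSP5, which switch off ERK, rose by log2 1.94 and 1.81, and DUSP1, which acts on p38 and JNK, fell to 98.3 and 111.0, against 353.8 and 312.0 in control (log2 -1.67 ± 0.27).

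Genes of antigen presentation by MHC class II rose in part, 4 of 14 with 1 lower, where 10.8% of all genes tested rose and 9.45% fell. HLA-DRA read 2773.8 and 3196.5 on the CD64 6 h arrays, against 856.9 and 967.0 on the control arrays (log2 1.71 ± 0.11, adjusted p = 5.02e-06). HLA-DMA, which loads peptide, and CTSS, the protease that trims the invariant chain, both rose by log2 1.27, and HLA-DRB1 by 0.78, with probe sets that may read related HLA genes. The 1 gene that fell was CD74, the invariant chain, at 1128.8 and 1242.7 against 1456.2 and 1863.8 in control (log2 -0.48). MHC class I genes were bright: B2M, the common light chain, read 9866.8 and 9827.8, against 17026.9 and 16228.7 in control, a log2 change of -0.76 as deposited and -0.15 after quantile normalization, where it was not called. HLA-B and HLA-C fell likewise as deposited (log2 -0.54 and -0.62) and were not called after quantile normalization, without CD64 6 h replicate 1 or without control replicate 2. Of 14 MHC class I genes 3 fell as deposited and 1 after quantile normalization, and 1 fell as deposited without CD64 6 h replicate 1 or without control replicate 2. Of 19 costimulatory genes 5 rose and 0 fell, and 2 rose without CD64 6 h replicate 2; CD58, a ligand of CD2, read 626.5 and 560.8, against 133.7 and 119.6 in control (log2 2.23 ± 0.16), and SLAMF1 rose by log2 2.11, a call lost without CD64 6 h replicate 2 and a change of 1.51 without control replicate 2 and 2.7 without control replicate 1.

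Of 20 Toll-like receptors and related genes 6 rose and 0 fell, where 10.8% of all genes tested rose and 9.45% fell. TREM1, which amplifies inflammatory signals, read 494.2 and 392.8 in CD64 6 h cells, against 67.2 and 27.2 in control cells (log2 3.13, with 1 control array under the floor). TLR4, the receptor of lipopolysaccharide, read 488.7 and 581.1, against 175.0 and 189.0 in control (log2 1.55 ± 0.19), and CLEC5A, a DAP12-coupled receptor, rose by log2 1.45. The co-receptor CD14 read 128.6 and 71.9 while both control arrays lay under the floor. Of 7 phagocyte oxidase genes 1 rose and 2 fell as deposited, and 1 rose and 1 fell after quantile normalization. CYBB, the catalytic subunit of the phagocyte oxidase, read 1474.7 and 1285.3, against 595.5 and 525.6 in control (log2 1.30 ± 0.16, adjusted p = 0.000177), while NCF4, a cytosolic subunit, had a log2 change of -0.59 and was not called without CD64 6 h replicate 1 or without control replicate 2. CAT, which breaks down hydrogen peroxide, had a log2 change of -0.53 as deposited and was called in 5 of 13 alternatives; it was not called after quantile normalization (-0.28), nor without CD64 6 h replicate 1, control replicate 1 or control replicate 2. ANXA1, a pro-resolving protein that limits phospholipase activity, read 6725.1 and 7214.5, against 2116.8 and 1788.5 in control (log2 1.84 ± 0.11), and S100A8, a calcium-binding alarmin, 810.2 and 743.9, against 228.0 and 208.3 (log2 1.83). The complement regulator CD55 rose by log2 1.74.

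Stress genes that depend on the transcription factor ATF4 rose, 12 of 23 with 2 lower and a median log2 change of 0.46. With any 1 array left out 9 to 11 rose and 0 to 1 fell. TRIB3, a pseudokinase induced by amino acid shortage, read 2692.1 and 2702.1 after CD64 6 h, against 589.1 and 658.4 in control (log2 2.11 ± 0.11, adjusted p = 8.91e-07). SLC7A11, the cystine transporter, read 916.0 and 856.9, against 174.4 and 170.7 in control (log2 2.36 ± 0.14). CTH, which makes cysteine, and ATF5 rose by log2 1.59 and 1.55, and PSAT1, of serine synthesis, by 1.22. Of 32 NRF2 targets and thioredoxin genes 9 rose and 5 fell, and 1 to 3 fell with any 1 array left out. TXNIP, an inhibitor of thioredoxin and of glucose uptake, read 2749.5 and 2605.0, against 537.0 and 486.8 in control (log2 2.39 ± 0.09). HMOX1, which degrades heme, read 475.7 and 624.5, against 136.5 and 126.5 (log2 2.05 ± 0.22), and SQSTM1, an autophagy adaptor, rose by log2 1.73.

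Of 27 heat shock genes 9 were lower and 4 higher, where 9.45% and 10.8% of all genes tested were called. Fewer were higher without CD64 6 h replicate 1, CD64 6 h replicate 2 or control replicate 2. HSPA6, a strictly inducible HSP70, fell to 101.3 and 161.7, against 557.0 and 624.3 in control (log2 -2.20 ± 0.27), and DNAJB1, a co-chaperone of HSP70, to 609.9 and 695.2, against 1698.0 and 1701.8 (log2 -1.38 ± 0.10). DNAJA1 and the ER chaperone DNAJB9 rose by log2 1.72 and 1.71. HSP90AB1 fell by log2 0.79 as deposited and by 0.45 after quantile normalization. In the unfolded protein response and among ER chaperones 5 of 18 genes were higher and 4 lower, with MANF and XBP1 higher by log2 0.99 and 0.97. Without CD64 6 h replicate 1 or control replicate 2 the genes higher numbered 3, and without CD64 6 h replicate 2 the genes lower numbered 2.

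Apoptotic caspases and their inhibitors were higher where they were called, 6 of 19 with 0 lower (4 to 5 with any 1 array left out). The list also holds CASP1, which activates interleukin-1 beta and is given above; it is among the 6. CASP6, an executioner caspase, read 436.3 and 400.4 on the CD64 6 h arrays, against 111.9 and 164.8 on the control arrays (log2 1.62 ± 0.32, adjusted p = 0.00441), and CASP8, the initiator below death receptors, 1251.0 and 1110.2, against 559.2 and 476.0 (log2 1.19). The inhibitor BIRC2 rose by log2 1.17. Of all genes tested 10.8% rose and 9.45% fell. In the BCL2 family 4 of 15 rose and 4 fell (2 rose and 2 to 3 fell with any 1 array left out). PMAIP1 (NOXA) read 1021.7 and 971.6, against 250.1 and 226.0 in control (log2 2.07 ± 0.16, adjusted p = 1.26e-05), BID rose by log2 1.28, and BNIP3, a hypoxia-induced member, fell by 0.91. CDKN1A, the inhibitor p21, read 283.9 and 309.1 while both control arrays, at 37.0 and 16.5, lay under the floor, and was at least 7.9-fold higher.

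Genes of mitosis fell, 19 of 42 with 0 higher as deposited and 23 with 0 higher after quantile normalization, with a median log2 change of -0.41. With any 1 array left out 15 to 17 fell. SPAG5, a spindle protein, read 469.9 and 532.6 in CD64 6 h cells, against 1348.1 and 1359.5 in control cells (log2 -1.44 ± 0.15, adjusted p = 6.64e-05). ESPL1, the separase, read 439.7 and 560.3, against 1022.2 and 1189.0 in control (log2 -1.15). AURKA and PLK1, mitotic kinases, both fell by log2 0.59, while no change was called for CDC20. Of 46 genes of DNA replication 16 fell and 5 rose (9 to 14 fell with any 1 array left out, and 2 rose without CD64 6 h replicate 1 and 3 without CD64 6 h replicate 2); POLD1, a polymerase subunit, fell to 445.0 and 454.9, against 1134.2 and 1379.3 in control (log2 -1.48), while CDC6, which licenses origins, rose to 637.8 and 691.4, against 285.7 and 316.2 (log2 1.14). CCNE2 and CDC25A, which drive entry into S phase, were higher by log2 2.78 and 2.01, and CDC25A by 1.46 to 2.57 with 1 array left out. They are the largest of a list with few calls. Of its 36 G1 cyclins, CDK inhibitors and p53 targets 5 rose and 1 fell, with a median log2 change of 0.07. Of all genes tested 10.8% rose and 9.45% fell.

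Genes of glycolysis were mostly lower. Of 27 genes of glycolysis and glucose uptake 17 fell and 2 rose as deposited, with a median log2 change of -0.63. After quantile normalization 13 fell and 2 rose, with a median of -0.34, and with any 1 array left out 14 to 17 fell and 0 to 1 rose as deposited. HK3 and HK2 trap glucose in the cell. HK3 fell by log2 2.29, which depends on the floor and was not called without CD64 6 h replicate 2 or without control replicate 1. HK2 read 653.8 and 482.3 after CD64 6 h, against 2489.0 and 2080.8 in control (log2 -2.02 ± 0.16). The glucose transporter SLC2A3 read 588.4 and 515.2, against 1481.6 and 1759.1 in control (log2 -1.55 ± 0.14), and PKM 2379.8 and 2657.1, against 4512.4 and 5824.9 (log2 -1.03). HK2 and SLC2A3 were lower by log2 2.15 and 1.71 after quantile normalization. ENO1 and GAPDH, enzymes of the lower part of the pathway, fell by log2 0.63 and 0.85 as deposited, and had log2 changes of -0.01 and -0.25 after quantile normalization. Of 21 hypoxia-inducible genes outside glycolysis 8 fell and 3 rose, with 5 lower without CD64 6 h replicate 2. HILPDA, a lipid droplet protein, read 388.6 and 399.4, against 2619.3 and 2282.1 in control (6.21-fold lower, log2 -2.63 ± 0.16, adjusted p = 2.14e-06), and NDRG1 2286.4 and 2470.1, against 6556.3 and 7184.8 (log2 -1.53). EPAS1 (HIF-2 alpha) itself was higher, at 523.2 and 507.2 against 144.8 and 189.4 in control (log2 1.64).

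Of 22 genes of cholesterol synthesis and uptake 15 fell and 0 rose. The median log2 change was -0.75 with the deposited scaling and -0.81 after quantile normalization, and with any 1 array left out 11 to 14 fell. LSS, which closes the sterol rings, read 1298.7 and 1043.3 in CD64 6 h cells, against 2589.1 and 2901.8 in control cells (log2 -1.24 ± 0.13). IDI1, an isomerase early in the pathway, read 1755.7 and 1356.4, against 3300.6 and 3885.6 in control (log2 -1.21). FASN, the fatty acid synthase, read 176.9 and 217.7, against 532.1 and 515.7 (log2 -1.42 ± 0.20), and INSIG1, the sterol sensor, 472.0 and 569.5, against 1245.2 and 1015.1 (log2 -1.12). SCARB1, a receptor of high-density lipoprotein, fell by log2 1.19.

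Genes of immature myeloid cells fell. Of 13 primary granule and immature myeloid genes 7 fell and 0 rose (5 to 6 fell with any 1 array left out), and of 36 myeloid and progenitor transcription factors 11 fell and 6 rose (7 to 10 fell and 2 to 3 rose with any 1 array left out). GFI1, a transcriptional repressor of myeloid development, read 236.3 and 299.7 on the CD64 6 h arrays, against 743.4 and 1181.2 on the control arrays (log2 -1.82 ± 0.25). SOX4 and MEIS1, transcription factors of progenitors, read 547.3 and 480.7, and 308.3 and 222.0, against 1799.1 and 1515.6, and 876.5 and 785.6, in control (log2 -1.69 and -1.67). MYB read 1756.3 and 1919.4, against 5437.4 and 5102.3 in control (log2 -1.52). The granule gene AZU1 read 1234.1 and 1545.0, against 3304.5 and 4192.1 (log2 -1.43), and IGLL1 fell by log2 1.62.

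Genes of RNA handling split, where 10.8% of all genes tested rose and 9.45% fell. SFPQ, a splicing and paraspeckle protein, read 4159.6 and 3967.9 in CD64 6 h cells, against 592.8 and 535.9 in control cells (7.21-fold, log2 2.85 ± 0.09, adjusted p = 1.66e-08), with the lowest adjusted p of all genes after CCL2. Of 48 splicing factors 12 rose and 16 fell (7 to 10 rose and 9 to 15 fell with any 1 array left out); HNRNPAB rose by log2 1.45 and SF3A2 fell by 1.5. EIF5, a translation initiation factor, read 2526.8 and 2646.9, against 597.8 and 543.8 in control (log2 2.18 ± 0.11), and VARS1, a tRNA synthetase, fell to 278.1 and 305.6, against 800.6 and 921.3 (log2 -1.56). Of 47 ribosomal protein genes 39 fell as deposited (27 to 36 with any 1 array left out) and 1 after quantile normalization. Their median log2 change was -0.6 as deposited and -0.01 after quantile normalization. RPS10, the brightest of them in control cells, read 14536.1 and 15801.3, against 27987.3 and 27312.1 in control, and its log2 change was -0.87 as deposited and 0.00 after quantile normalization. The 3 control probe sets for 28S ribosomal RNA were higher to unequal degrees. The middle one read 4160.4 and 4131.6 on the CD64 6 h arrays against 688.1 and 795.4 on the control arrays, the 5-prime one 462.5 and 427.8 against 313.8 and 264.6, and the 3-prime one 96.7 and 90.1 against 54 and 42.6. Their part in these results was not tested. Of 33 proteasome subunits 7 rose and 0 fell, with PSMA3 and PSMD12 higher by log2 0.95 and 0.93 and 3 to 6 higher with any 1 array left out.

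Further large falls were measured in single genes. EHMT2, a histone methyltransferase, read 157.7 and 160.0 after CD64 6 h, against 659.1 and 864.9 in control (log2 -2.25 ± 0.21, adjusted p = 4.1e-05), and its other probe set gave -1.77. ATP5F1C, the gamma subunit of ATP synthase, read 87.8 and 95.9, against 475.3 and 484.7 in control (log2 -2.39 ± 0.41). CDK10, a cyclin-dependent kinase, lay under the floor on both CD64 6 h arrays, against 176.3 and 170.3 in control, and was at least 4.62-fold lower. MED12, of the mediator complex, read 21.5 and 132.7, against 332.1 and 357.4, with a log2 change of -2.29 that was -1.38 without CD64 6 h replicate 1 and -3.2 without CD64 6 h replicate 2, and was not called without control replicate 1 or control replicate 2. ORAI3, a calcium channel subunit, read 388.5 and 516.9, against 1535.4 and 1775.7 in control (log2 -1.88 ± 0.22), and TCIRG1, of the proton pump, 291.0 and 211.2, against 938.2 and 943.2 (log2 -1.92). Other pump subunits rose: with 1 array left out the log2 change was 1.54 to 1.70 for ATP6V0E1, 1.14 to 1.33 for ATP6V0B and 1.12 to 1.31 for ATP6V1C1. Of 41 lysosomal and proton pump genes 8 rose and 9 fell, where 10.8% and 9.45% of all genes tested did.

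The same genes were set against the 2 nearest groups by direct tests, which share the CD64 6 h arrays with the comparison above. Against CD32 cross-linking for 6 h, 1176 genes differed (17.3% of those tested), 660 higher with CD64 (9.7%) and 516 lower (7.58%). Probe sets called numbered 1357 (17.6%), and 646 to 946 with any 1 of the 4 arrays left out, lowest without CD64 6 h replicate 1. The added transcripts differed more in this comparison than against control, with a mean log2 signal of 9.32 on the CD64 6 h arrays and 12.36 on the CD32 6 h arrays, and the actin ratio was 1.12 against 1.99; their part was not tested. IFIT1 was higher with CD64, at 4416.0 and 3933.8 against 459.3 and 545.7 with CD32 (log2 3.06 ± 0.19, adjusted p = 5.47e-06), as were RIGI (2.33) and CCL2 (2.05). Of 8 IFIT genes and sensors 4 were higher with CD64 and 0 lower, and 1 of the 4 oligoadenylate synthetases was higher (0 with any 1 array left out). PTX3, at 848.2 and 780.8 against 217.4 and 242.3 with CD32, and CASP6, at 436.3 and 400.4 against 102.7 and 72.5, were higher too (log2 1.83 and 2.28). Other interferon lists were mixed. Of 36 other interferon-stimulated effectors 9 were higher and 4 lower, and 6 and 3 after quantile normalization. Of 3 CXCR3 ligands 1 was higher and 2 lower, and 0 and 1 after quantile normalization. CXCL9 was lower with CD64 by log2 0.81 as deposited and 0.52 after quantile normalization.

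Immediate early genes were lower with CD64 than with CD32 at 6 h: 14 of 30 were lower and 0 higher (8 to 9 lower with any 1 array left out). FOSB lay under the floor on both CD64 arrays and read 630.8 and 627.9 with CD32, at least 16.8-fold lower with CD64 (adjusted p = 4.67e-05). EGR1 read 126.7 and 158.8, against 1038.4 and 877.8 with CD32 (log2 -2.75 ± 0.31), and CDKN1A 283.9 and 309.1, against 1089.6 and 1131.8 (log2 -1.91). Of 22 cholesterol genes 13 were lower with CD64, with HMGCS1 at 358.6 and 232.6 against 1346.8 and 1350.0 with CD32 (log2 -2.22). PKM read 2379.8 and 2657.1 with CD64 and 15584.2 and 13518.6 with CD32 (log2 -2.53 as deposited, -2.30 after quantile normalization).

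Against CD64 cross-linking for 2 h, 922 genes differed (13.6%), 515 higher at 6 h (7.57%) and 407 lower (5.98%). Probe sets called numbered 1065 (13.8%), and 455 to 602 with any 1 of the 4 arrays left out, lowest without CD64 6 h replicate 2. Fitted on these 4 arrays alone, 3 probe sets were called, and 98 of the 100 named genes of this comparison were not. The mean log2 signal of the added transcripts was 9.32 at 6 h and 10.87 at 2 h, and the actin ratio was 1.12 at 6 h and 1.80 at 2 h; their part was not tested. Of the 8 IFIT genes and sensors 7 were higher at 6 h, of the 4 oligoadenylate synthetases 4, and of the 36 other interferon effectors 22, with 0 lower in each list (7, 4 and 15 to 19 higher with any 1 array left out). IFIT1 read 4416.0 and 3933.8 at 6 h, against 147.1 and 195.5 at 2 h (log2 4.62 ± 0.19, adjusted p = 3.25e-07), and IL1RN 2661.5 and 3231.1 at 6 h, against 304.6 and 359.1 at 2 h (log2 3.15 ± 0.15). CXCL8 went the other way, at 832.7 and 785.5 at 6 h against 2347.1 and 2456.1 at 2 h (log2 -1.57 ± 0.15, adjusted p = 9.82e-05). HSPA6 and DNAJB1 were lower at 6 h (log2 -2.19 and -1.07), and of 42 mitotic genes 24 were lower at 6 h and 0 higher (13 to 17 lower with any 1 array left out). For HMOX1 and CD55 no difference between 6 h and 2 h was called (log2 0.01 and 0.03).

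**Figure D4:**
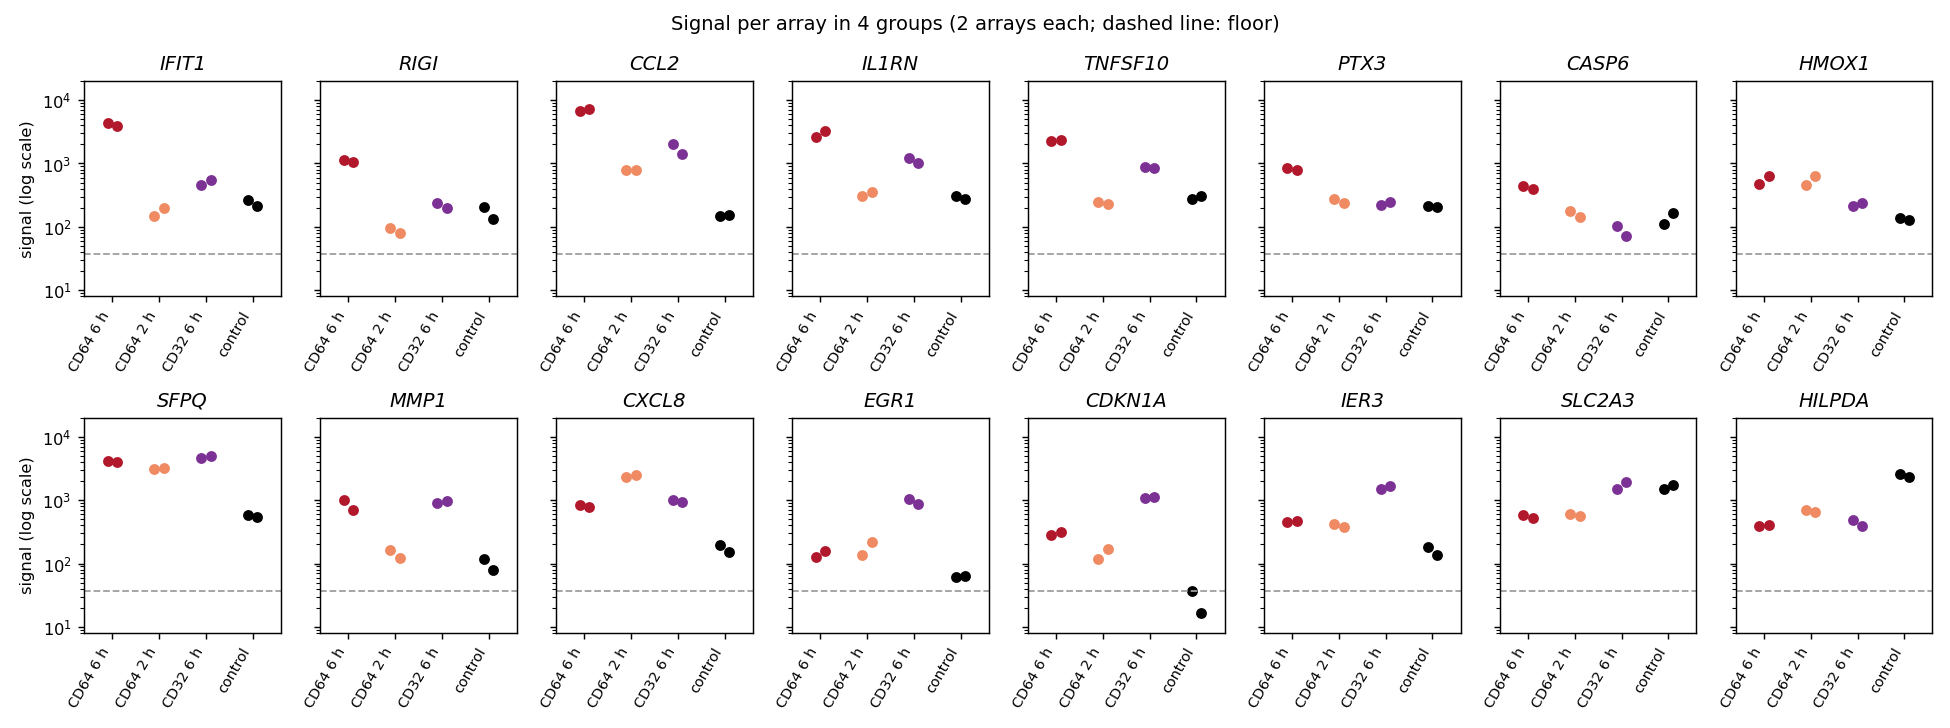
Signal per array on a log scale for 16 genes in cells cross-linked through CD64 for 6 h or 2 h, through CD32 for 6 h, and in control cells; points are the 2 arrays of each group and the dashed line is the floor of 37.5. The CD64 6 h arrays are the highest of the 4 groups for IFIT1, RIGI, CCL2, IL1RN, TNFSF10, PTX3 and CASP6, while EGR1, CDKN1A and IER3 are highest in the CD32 6 h cells and CXCL8 in the CD64 2 h cells.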

How the data were processed

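Per the labels, RNA of U937 cells was profiled on 10 arrays in 5 groups of 2. The authors deposited linear intensity values, already scaled: leaving out the lowest and the highest 2%, each array averaged 499.9 to 500.5. Array number limits the precision. The scaling software is not given in the sources used here.

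Of 8746 probe sets that were not control probe sets, 7840 had 1 gene symbol in the platform annotation, 388 several and 518 none. Lower values were raised to the floor of 37.5 and log2 was taken; a probe set entered the test if 2 or more arrays exceeded the floor. One model over all 10 arrays, with a term per group, was fitted in R 4.3.3 using limma 3.58.1 (variance trend, two-sided, Benjamini-Hochberg over 7708 probe sets, threshold 0.05; 5 residual degrees of freedom, prior 5.65). Errors are limma standard errors, n = 2 arrays a group. The brightest tested probe set stands for a gene. Where both arrays of the lower group lay under the floor, the fold is a lower bound. Figures were drawn in Python 3.11.15 with matplotlib 3.10.9.

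Data were simulated for CD64 6 h against control on 7708 probe sets. Of 100 probe sets changed by log2 1, 41 were recovered, and of 100 changed by log2 2, 78. Among the unchanged probe sets there were 6 false calls. The simulation shuffled the spreads between probe sets and so did not keep their link with brightness.

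Quantile and cyclic loess normalization, other floors and filters, other variance models and leaving out each array were tried. For list counts, and for genes named in the comparisons with CD32 6 h and CD64 2 h, these were chosen after seeing the data.

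The comparison, the 51 gene lists and the tests were chosen with earlier results of these data known. Genes were named by rule: the 15 highest and 15 lowest called changes with separate groups, for every list at most 4 called genes by size of change, and the tested Fc gamma receptors; in the other comparisons 8 each way and at most 2 a list. VAV1, BTK, SYK, IFIH1, IFI27, USP18, IFI6, MX2, EIF2AK2, GBP1, GBP2, CXCL9, CCL5, CCR1, CXCR4, IL1B, IL6, TNF, NFKBIA, FOS, JUN, JUNB, CD74, CD14, PSAT1, AURKA, PLK1, CDC20, PKM, ENO1, GAPDH, INSIG1 and MYB, and HMOX1 and CD55 at 2 h, were chosen after their values were seen. One CD32 2 h array is labelled with another receptor name in its source, and its title was followed.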

Additional observations from a re-analysis of the deposited data

Results flagged for a closer look

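The changes after 6 h of CD64 cross-linking differed from those of both nearest groups by direct tests in limma: 1357 probe sets differed from CD32 6 h and 1065 from CD64 2 h. Genes whose arrays lay on opposite sides of both control arrays in the compared groups, with a called difference of at least 4-fold, are given with their log2 difference.

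CASP6, an executioner caspase, was above control with CD64 6 h and below it with CD32 6 h, a difference of 2.28. The other genes of this kind against CD32 6 h were below control with CD64 and above it with CD32. HMGCS1, of sterol synthesis, differed by -2.22, and PPP1R15A, which restores translation after stress, by -2.34. SPI1, the myeloid factor PU.1, differed by -2.40, and PKM, a glycolytic kinase, by -2.53. PRKCSH, a glucosidase subunit of the endoplasmic reticulum, differed by -2.54 and FASN, the fatty acid synthase, by -2.56. MEF2D, a transcription factor, lay under the floor on both CD64 6 h arrays and was at least 8.12-fold lower; its fitted difference of -3.02 depends on the floor and ran from -3.16 to -1.61 over the alternatives.

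Against CD64 2 h, the interferon-induced genes of this kind lay above control at 6 h and below it at 2 h. Their differences were 4.62 for IFIT1, 3.64 for RIGI, 3.37 for IFI44 and 2.88 for OASL. Some other interferon-induced genes overlapped control at 2 h. IFIT3 read 172.4 and 218.1 at 2 h, against 161.1 and 184.4 in control, and ISG15 653.5 and 765.7, against 520.6 and 805.9. CD64 2 h was not tested against control. The death ligand TNFSF10 differed by 3.28, HLA-DPB1 by 2.06 and the pore-forming BAX by 2.28, which depends on the floor as 1 array at 2 h lay under it. DIAPH3, a formin, was below control at 6 h and above it at 2 h. Both of its CD64 6 h arrays lay under the floor, so it was at least 4.02-fold lower, and its fitted difference of -2.01 ran from -2.92 to -0.59 over the alternatives.

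The middle one of 3 control probe sets for 28S ribosomal RNA, which entered no comparison, averaged 4146 on the CD64 6 h arrays, 383 on the CD64 2 h arrays, 1323 on the CD32 6 h arrays and 742 on the control arrays. The other sets averaged 445 and 93.4 on the CD64 6 h arrays, against 289 and 48.3 on the control arrays. Their part in the results was not tested.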

How the results depend on the processing

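For CD64 6 h against control, 1591 probe sets were called. Leaving out 1 array gave 967 to 1290, and fitting only the groups compared gave 647. The share of calls upward was 51.9%, and 57.7% without the brightest 5% of probe sets, 54.8% without a variance trend and 58% with only the groups compared. Of 192 named genes called, 150 were called with every array left out in turn, and 10 were not called after quantile normalization. Fitted on the groups compared alone, 72 of the 192 were not called. No called gene named in this comparison turned its direction in any alternative run; FCGR2A and FCGR3B, which were not called, did in some alternatives (-0.20 to 0.02 and -0.80 to 1.13). Against CD32 6 h, 1357 probe sets were called, 646 to 946 with 1 array left out and 508 with only the groups compared, where 45 named genes were not called. Against CD64 2 h, 1065 were called, 455 to 602 with 1 array left out, 579 without a variance trend, and 3 with only the groups compared, where 1926 had an unadjusted p under 0.05 and 98 of 100 named genes were not called. In that comparison CTSG and MT2A, lower as deposited, had log2 changes of 0.0436 and 0.156 after quantile normalization. Fewer arrays and residual degrees of freedom enter the fits with fewer samples; for the other settings the cause was not tested. No paired analysis was possible because the arrays of different groups carry no number that ties them. Values under the floor have no order, which limits folds of dim genes, and compression limits statements on very bright genes.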
